A study of Danio rerio with 8 samples.

Results

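A group of 4 genes that make fatty acids and sterols or switch on their synthesis, srebf1 (ENSDARG00000067607), fasn (ENSDARG00000087657), scd (ENSDARG00000033662) and hmgcra (ENSDARG00000052734), were followed in zebrafish melanomas. They were chosen by their Ensembl IDs, and all 4 had a row among the 22416 genes of the deposited tables. RNA sequencing covered 8 melanomas of matched age, taken at 10 to 12 weeks. All fish had the strain tp53m214K/m214k; mitfa-/-; nras G12D, so mutant p53, loss of mitfa and the activated NRAS were shared by both groups. The control group carried Tg(mitfa:egfp) (n = 3) and the test group Tg(mitfa:dgat1a) (n = 5), each delivered by miniCoopR, a vector that joins a mitfa rescue gene to the gene under test. The mitfa promoter is active in the melanocyte lineage, while a dissected tumour also holds other cells. The comparison asks what added dgat1a, an enzyme of triacylglycerol synthesis, goes with in the genes that supply its fatty acid substrate. The labels do not say whether tumours came from separate clutches, and p-values measure only the spread between these 8 tumours.

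Fatty acid synthase, encoded by fasn, builds palmitate from acetyl and malonyl units. Stearoyl-CoA desaturase, encoded by scd, places a double bond in the saturated product, and the resulting monounsaturated chains are favoured substrates for triacylglycerol. The gene hmgcra encodes the rate-limiting enzyme of cholesterol synthesis. In mammals the transcription factor SREBP-1, the product of SREBF1, mainly drives fatty acid genes, and its relative SREBP-2 mainly drives sterol genes and the LDL receptor. Both are held in the endoplasmic reticulum by SCAP and INSIG proteins and are released by proteases when sterol is low, and unsaturated fatty acids restrain SREBP-1.

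The libraries held 20936089 to 26865735 reads on the listed genes. Values are in fpm, the authors' per-million value, and 3 reads corresponded to at most 0.138 fpm. The targeted gene was checked first. Of the 2 IDs annotated DGAT1, ENSDARG00000103503 averaged 47.1 ± 25.1 fpm (SD, n = 3) without the dgat1a transgene and 3015 ± 724 fpm (SD, n = 5) with it, and it was the one gene of the lists described here past the threshold in limma (log2 fold change 6.08, adjusted p = 0.00019). The other, ENSDARG00000054914, lay between 3.03 and 5.96 fpm in all 8 tumours. Replicate 1 of egfp stood apart from the rest, with a mean correlation of 0.854 with the other profiles against 0.897 to 0.918 for the other 7. Melanocyte genes were present in every tumour. Tyrosinase (TYR) was never below 114.3 fpm and the neural crest factor SOX10 never below 667.4 fpm.

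The regulator srebf1 had overlapping levels in the groups. It measured 45.4, 40.9 and 27.3 fpm in egfp replicates 1 to 3, and 89.6, 74.7, 25.7, 43.0 and 49.2 fpm in dgat1a replicates 1 to 5. The dgat1a group thus held both the highest tumours, replicates 1 and 2, and the lowest, replicate 3. Means were 37.9 ± 9.39 fpm (SD, n = 3) and 56.4 ± 25.5 fpm (SD, n = 5). On the log2(fpm + 0.5) scale dgat1a exceeded egfp by 0.47 (SE 0.39, 95% interval -0.41 to 1.35), which does not differ from 0 beyond the spread between tumours (limma adjusted p = 0.575). In bulk tumours a change in the number of cells of a type and a change in RNA per cell cannot be told apart, here and below.

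For fasn the 3 egfp tumours were nearly alike and the 5 dgat1a tumours spread widely. The egfp values were 82.4, 76.3 and 88.0 fpm. The dgat1a values were 200.9, 179.8, 88.1, 67.9 and 110.5 fpm in replicates 1 to 5. Replicates 1, 2 and 5 of dgat1a were clearly above every egfp tumour, replicate 3 was level with the highest of them and replicate 4 was below all of them. The SD on the log2 scale was 0.10 in egfp tumours and 0.66 in dgat1a tumours, where the median tested gene had 0.44 and 0.41. The log2 fold change came to 0.53 (SE 0.35, 95% interval -0.26 to 1.32, limma adjusted p = 0.484), an interval that runs from 0.837-fold to 2.502-fold.

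Levels of scd were low and again highest in the same dgat1a replicates. The gene measured 3.92, 9.04 and 2.97 fpm in egfp replicates 1 to 3, and 15.3, 9.47, 5.71, 5.76 and 8.02 fpm in dgat1a replicates 1 to 5. All 5 dgat1a tumours were above 2 of the 3 egfp tumours, and egfp replicate 2 lay inside the dgat1a range. Each value rested on 77 to 349 reads. The log2 fold change came to 0.74 (SE 0.43, 95% interval -0.22 to 1.69, limma adjusted p = 0.433).

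The sterol gene hmgcra had 1 tumour far above the rest. It measured 5.73, 12.7 and 3.01 fpm in egfp replicates 1 to 3, and 8.18, 70.4, 5.43, 2.48 and 5.50 fpm in dgat1a replicates 1 to 5. Replicate 2 of dgat1a, with 1687 reads of the gene, was 5.52-fold above the next tumour, which was an egfp tumour. The other 4 dgat1a tumours lay within or just below the egfp range, and the medians of the groups were 5.73 and 5.50 fpm. The log2 fold change came to 0.47 (SE 0.91, 95% interval -1.58 to 2.52, limma adjusted p = 0.823). Without dgat1a replicate 2 it was -0.26 with an interval of -1.46 to 0.93 (limma adjusted p = 0.848), so its direction depended on that tumour. The SD of hmgcra over the 8 tumours, 1.43 log2 units, was at the 95.1 percentile of all tested genes, against 61.1 for fasn, 65.3 for srebf1 and 72.1 for scd.

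**Figure D1:**
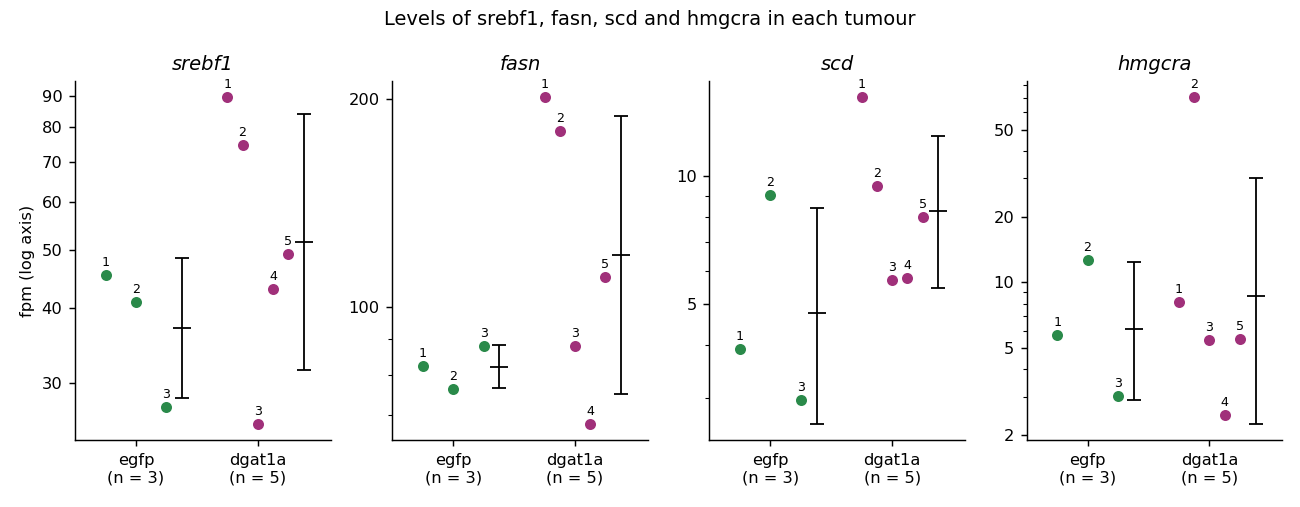
Level of srebf1, fasn, scd and hmgcra in each tumour, in fpm on log axes that differ between panels. Points are tumours labelled by replicate number, and bars beside them give the mean ± SD taken on the log2(fpm + 0.5) scale. Replicates 1 and 2 of dgat1a are the highest tumours for srebf1, fasn and scd, and replicate 2 alone stands at 70.4 fpm for hmgcra.

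Set side by side, none of the 4 genes passed the threshold between the groups. All 4 passed the filter on low values, all 4 had a positive log2 fold change where 53.6% of the 16853 tested genes did (hmgcra -0.26 without dgat1a replicate 2), and 0 of 4 were past an adjusted p of 0.05 in limma, where 0.0534% of tested genes were. None was at an unadjusted p under 0.05, a share of 15% among tested genes, and in none were the groups without overlap, against 10.4% of tested genes. The edgeR quasi-likelihood test (adjusted p 0.398 to 0.561, background 0.0178%) and DESeq2 (adjusted p 0.346 to 0.473 for 3 genes, background 5.14%) called none of them either. DESeq2 gave no adjusted p for hmgcra, and without its filter on extreme counts the value was 0.453. Exact two-sided permutation tests over the 56 splits gave p = 0.232 for fasn, 0.143 for scd, 0.304 for srebf1 and 0.786 for hmgcra, where the smallest possible is 0.0179. These intervals leave room for differences of more than 2-fold in each gene, and a p that misses the threshold does not show that the groups were alike.

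**Figure D2:**
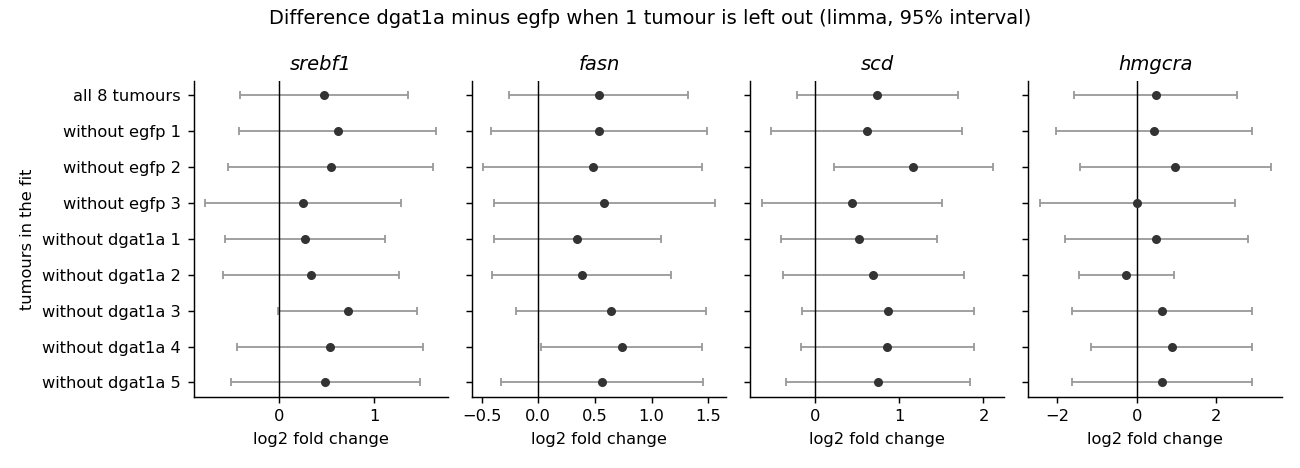
Log2 fold change of dgat1a over egfp for the 4 genes with all 8 tumours and with each tumour left out in turn. Points are limma estimates on log2(fpm + 0.5) and bars their 95% intervals. The estimate for hmgcra turns to -0.26 without dgat1a replicate 2, and that for scd lies between 0.44 and 1.16.

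Leaving out single tumours moved the size of the differences. For srebf1 the log2 fold change lay between 0.26, without egfp replicate 3, and 0.72, without dgat1a replicate 3. For fasn it lay between 0.35, without dgat1a replicate 1, and 0.74, without dgat1a replicate 4. The interval left out 0 in that last fit (0.03 to 1.44), with a limma adjusted p of 0.347. For scd the estimate was 0.44 without egfp replicate 3 and 1.16 without egfp replicate 2, where the interval was 0.22 to 2.11 and the limma adjusted p 0.205.

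How the 4 genes varied with each other was examined over the 8 tumours in 6 pairs, on log2(fpm + 0.5). The correlation of fasn with srebf1 was Pearson's r = 0.79 (exact permutation p = 0.0268, 0.0804 adjusted over the 6 pairs) and Spearman's rho = 0.60 (exact permutation p = 0.132). It was r = 0.78 for scd with srebf1 (exact permutation p = 0.0215, 0.0804 adjusted) with rho = 0.71 (exact permutation p = 0.0576). The pair fasn and scd had r = 0.69 and rho = 0.52 (exact permutation p = 0.0609 and 0.197). The 3 pairs with hmgcra had r from 0.53 to 0.63 and rho from 0.45 to 0.69 (exact permutation p of r from 0.0906 to 0.186). No pair passed 0.05 after adjustment, where the adjusted p of rho lay between 0.208 and 0.267. Without the 2 tumours farthest from the median of fasn, dgat1a replicates 1 and 2, r of fasn with srebf1 was 0.00 and with scd 0.08, so both relations rested on those tumours. For scd with srebf1, r was 0.44 without egfp replicate 3 and dgat1a replicate 1. For hmgcra with fasn, r was 0.12 without dgat1a replicates 1 and 2. With scd it was 0.64 without egfp replicate 3 and dgat1a replicate 1, and with srebf1 0.79 without dgat1a replicates 1 and 3. These last 2 values kept dgat1a replicate 2, the highest tumour for hmgcra, and rho was 0.60 and 0.49. Within the groups, as deviations from the group means, r was 0.75 for fasn with srebf1 and 0.73 for scd with srebf1, and 3 and 5 tumours are too few for a value in each group alone.

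The gene whose pattern was most like that of fasn, out of 16852 others, was ldlrb (r = 0.96 over 8 tumours), a zebrafish gene for the LDL receptor, which takes up cholesterol-rich lipoprotein. It measured 10.9, 10.1 and 9.15 fpm in egfp tumours and 74.1, 45.9, 10.9, 11.1 and 20.6 fpm in dgat1a replicates 1 to 5. Its order among dgat1a tumours was that of fasn for the 3 highest, and its 2 lowest lay near the egfp tumours. The closest gene to srebf1 was NUDT6 (r = 0.96), to scd E4F1 (r = 0.97) and to hmgcra ADCK5 (r = 0.98). Among 75 other genes of the lipid lists, hmgcra was closest to SQLE (ENSDARG00000079946, r = 0.98), squalene epoxidase, then to FDPS (r = 0.95) and HMGCS1 (r = 0.94), 3 enzymes of the same pathway. Genes with r over 0.9 numbered 17 for fasn, 44 for srebf1, 22 for scd and 64 for hmgcra, each out of 16852 others. These correlations are descriptions over 8 tumours, and each closest gene was picked from 16852 others. With so many genes compared over so few tumours, some high r values arise by chance. How many would pass 0.9 by chance was not computed. The correlations with hmgcra share dgat1a replicate 2 as a point far above the rest. For fasn with ldlrb, dgat1a replicates 1 and 2 were the highest points of both genes.

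**Figure D3:**
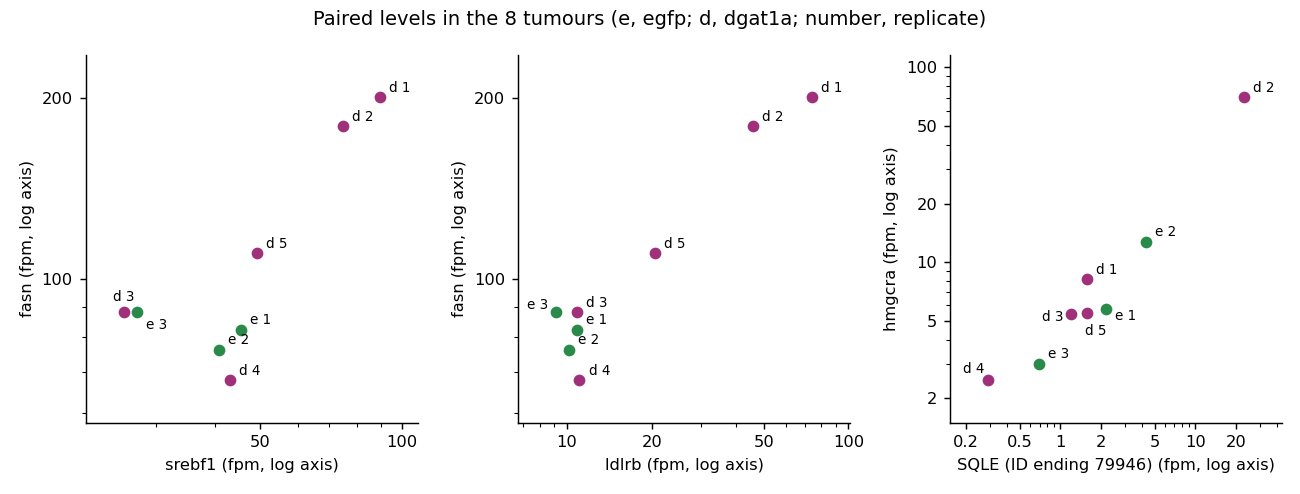
Levels in each of the 8 tumours, in fpm on log axes, of fasn against srebf1 (left), fasn against ldlrb (middle) and hmgcra against SQLE (right). Points are tumours, with e for egfp and d for dgat1a followed by the replicate number. Replicates 1 and 2 of dgat1a are at the top right of the first 2 panels, and replicate 2 alone at the top right of the third.

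The wider fatty acid synthesis list held 18 tested IDs, and its clearest member was the second desaturase gene. The paralog scdb (ENSDARG00000030265) measured 1.01, 4.98 and 5.33 fpm in egfp replicates 1 to 3 and 60.4, 26.7, 40.6, 60.5 and 30.9 fpm in dgat1a replicates 1 to 5. The groups did not overlap, as in 4.46% of tested genes with dgat1a higher, and the order within the dgat1a group was not that of scd. The log2 fold change came to 3.53 (SE 0.48, 95% interval 2.44 to 4.61) and just missed the threshold in limma (adjusted p = 0.0558). It was also missed in edgeR (adjusted p = 0.124) and passed in DESeq2 (adjusted p = 2.49e-08). In the authors' deposited table its log2 fold change was 2.96 with an adjusted p of 1.13e-07. How reads shared between scd and scdb were counted is not given in the sources used here.

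Other steps of fatty acid synthesis went in both directions. No ID of this list was past the threshold in limma and 1 was in DESeq2, where 0.0534% and 5.14% of tested genes were. DESeq2 gave no adjusted p for the ELOVL1 ID ENSDARG00000099960. At an unadjusted limma p under 0.05, 3 were higher and 2 lower, where 6.83% and 8.18% of tested genes were. ACSS2, which makes acetyl-CoA from acetate, measured 149.1 ± 39.0 fpm (SD, n = 3) in egfp and 84.1 ± 21.5 fpm (SD, n = 5) in dgat1a tumours. Its groups did not overlap, as in 5.95% of tested genes with dgat1a lower, and its log2 fold change was -0.83 (limma adjusted p = 0.225). ACACB, an acetyl-CoA carboxylase whose product malonyl-CoA restrains fatty acid entry into mitochondria, had a log2 fold change of -0.87 (limma adjusted p = 0.330). ELOVL1 (ENSDARG00000103735), an elongase of very long chains, went from 71.3 ± 12.3 to 117.5 ± 37.2 fpm (log2 fold change 0.68, limma adjusted p = 0.289). Its groups did not overlap, as in 4.46% of tested genes with dgat1a higher. The other ELOVL1 ID, ENSDARG00000099960, had a log2 fold change of -0.94 (limma adjusted p = 0.748). It measured 111.2 fpm in egfp replicate 3 and 1.01 to 12.5 fpm elsewhere. SLC25A1 (ENSDARG00000076381), a gene for the mitochondrial citrate carrier, went from 3.65 to 7.36 fpm (log2 fold change 0.86, limma adjusted p = 0.302). The paralog slc25a1a, at higher levels, went the other way, from 18.4 to 14.9 fpm (log2 fold change -0.28, limma adjusted p = 0.679). Over the list 13 log2 fold changes were positive and 5 negative, where 53.6% of all tested genes were positive. The median was 0.26 against 0.04 for all tested genes.

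**Figure D4:**
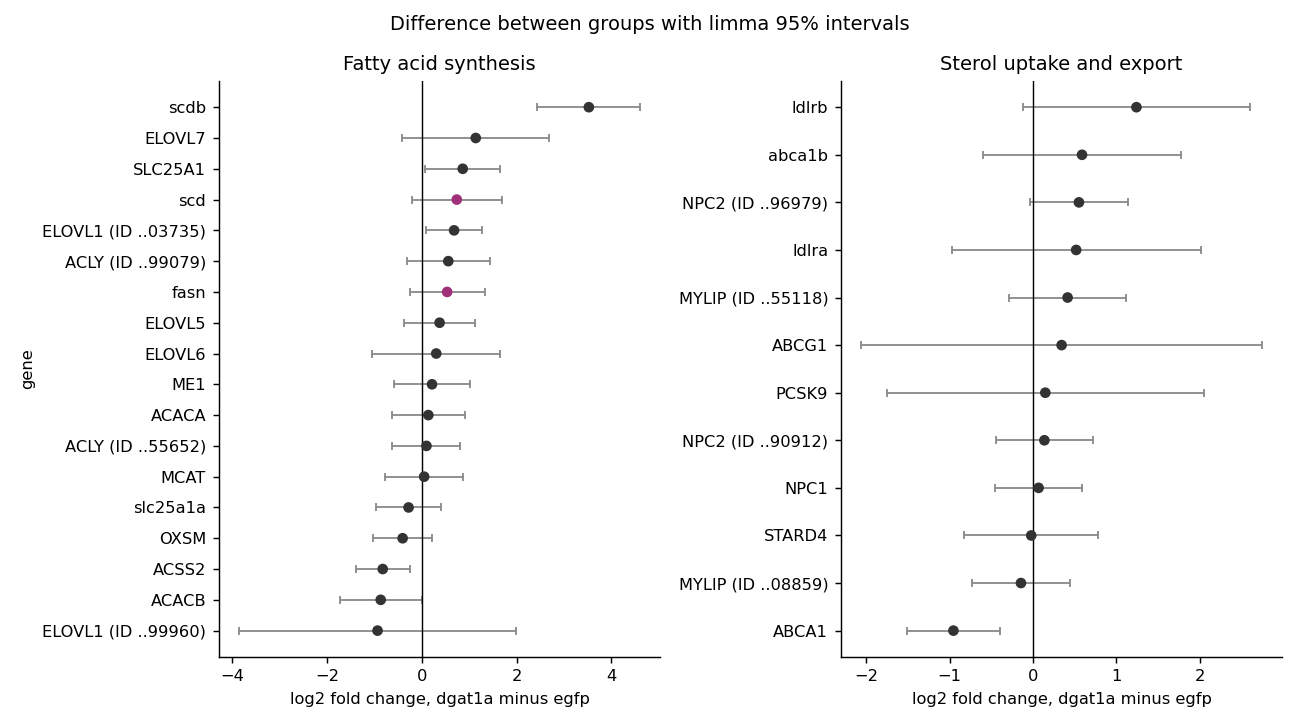
Log2 fold change of dgat1a over egfp for the tested IDs of the fatty acid synthesis list (left) and the sterol uptake and export list (right). Points are limma estimates on log2(fpm + 0.5) with 95% intervals, fasn and scd are coloured, and symbols with several IDs carry the last digits of the ID. The interval of scdb, 2.44 to 4.61, lies farthest from 0, and ABCA1 is the lowest estimate of the right panel.

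The same pair of tumours held the highest values of several genes of the fatty acid list. Replicates 1 and 2 of dgat1a were the 2 highest tumours for fasn, scd and srebf1, a pattern described after its values were seen, which 6.46% of tested genes showed. Apart from fasn and scd, which defined the pattern, it held for 4 of 16 IDs of the fatty acid list, namely ACLY (ENSDARG00000099079), ACACA, MCAT and ELOVL1 (ENSDARG00000103735). This ACLY ID, whose product splits citrate into acetyl-CoA, measured 92.7 and 128.0 fpm there and at most 92.1 fpm elsewhere. MCAT measured 3.82 and 4.71 fpm there and at most 3.59 fpm elsewhere, so both margins were small. The margin of scd was small as well, at 9.47 fpm in dgat1a replicate 2 and 9.04 fpm in egfp replicate 2. The other ACLY ID, ENSDARG00000055652, did not show the pattern, at 6.59 and 2.96 fpm there and 2.82 to 4.98 fpm elsewhere. ACACA, the carboxylase that supplies fasn with malonyl-CoA, measured 169.3 and 261.0 fpm there and at most 138.0 fpm elsewhere. Apart from srebf1 it held for 1 of 14 regulators, srebf2, at 97.7 and 148.5 fpm against at most 81.1 fpm elsewhere. It also held for 4 of 20 cholesterol synthesis IDs, 1 of 12 of sterol uptake and export, 1 of 11 of triacylglycerol synthesis and 3 of 8 melanocyte marker IDs. The summed melanocyte markers were also highest in these 2 tumours, 14723 and 18381 fpm against 3380 to 9668 fpm, with pmela, a pigment granule protein, at 9225 and 13275 fpm. The sum ranged from 5569 to 6846 fpm in egfp and 3380 to 18381 fpm in dgat1a tumours, and 0 of its 8 IDs passed the threshold in limma. DESeq2 called pmela higher (log2 fold change 1.78, adjusted p = 0.0455), while the authors' deposited table gave it an adjusted p of 0.0687. In limma pmela and TYR were higher at unadjusted p-values of 0.0468 and 0.0386. MITF (ENSDARG00000003732) measured 1609 to 2851 fpm in egfp and 684.9 to 1565 fpm in dgat1a tumours, lower in the latter at an unadjusted limma p of 0.00734 (limma adjusted p = 0.216). The vector of both groups carries a mitfa rescue gene, and its part in the MITF reads, which also enter the sum, was not tested. The summed skeletal muscle markers were highest in dgat1a replicate 1, at 349.7 fpm, and stood at 2.21 fpm in dgat1a replicate 2. The part of melanocyte or muscle content in the lipid values was not tested either.

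Cholesterol synthesis genes were high together in dgat1a replicate 2. Of 20 tested IDs of the list, 19 had their highest value in that tumour, where 16.7% of all tested genes did. At least 2-fold above the next tumour were 13, where 1.38% of tested genes were. Each of these counts includes hmgcra, whose high value drew attention to this tumour, and the pattern was described after its values were seen. HMGCS1, the enzyme before hmgcra, measured 15.8, 31.0 and 19.9 fpm in egfp tumours and 26.6, 238.9, 22.2, 16.2 and 27.8 fpm in dgat1a replicates 1 to 5. SQLE (ENSDARG00000079946) measured 22.9 fpm in dgat1a replicate 2 and 0.292 to 4.28 fpm in the others. CYP51A1, the lanosterol demethylase, measured 70.0 fpm against 6.16 to 17.3 fpm. The level over the next tumour differed between steps. It was 7.71-fold for HMGCS1, 2.67-fold for FDPS, which makes farnesyl diphosphate, and 2.76-fold for LSS, which closes the sterol rings. For ACAT2, MVK, PMVK, MVD, IDI1 and NSDHL it was under 2-fold, from 1.18-fold for ACAT2 to 1.86-fold for MVK.

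The exception was LBR. LBR, a sterol reductase that is also a nuclear envelope protein, was highest in dgat1a replicate 5. Between the groups 0 of 20 IDs passed the threshold in limma, 0 in the edgeR quasi-likelihood test, 0 in DESeq2 and 0 at an unadjusted p under 0.05 in limma. Among all tested genes the shares were 0.0534%, 0.0178%, 5.14% and 15%. The list's strongest limma statistics included LSS, with a log2 fold change of 0.72 (limma adjusted p = 0.485), and the reductase TM7SF2, with 0.61 (limma adjusted p = 0.533). The median log2 fold change was 0.32 with 18 of 20 positive, where all tested genes had a median of 0.04 and 53.6% positive. Without dgat1a replicate 2 the median of the list was -0.12 with 9 of 20 positive. A second ID annotated SQLE, ENSDARG00000063319, lay at 0 to 0.220 fpm and did not pass the filter on low values.

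**Figure D5:**
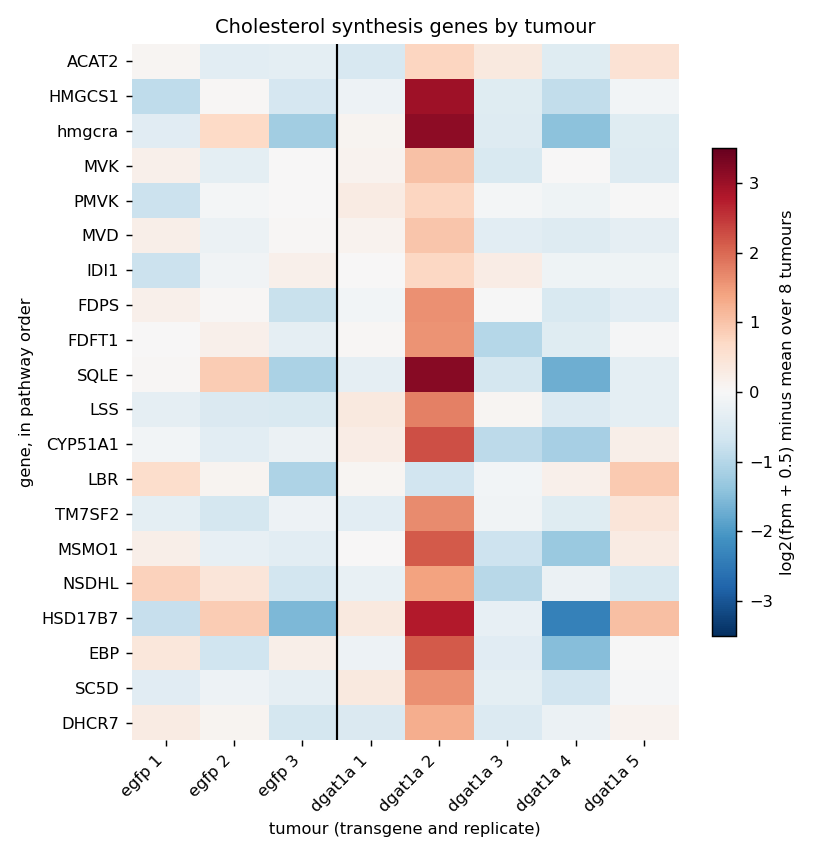
The 20 tested cholesterol synthesis IDs in pathway order (rows) in the 8 tumours (columns). Colour gives log2(fpm + 0.5) minus the gene's mean over the 8 tumours, and the line parts egfp from dgat1a. The column of dgat1a replicate 2 holds the highest value in 19 of 20 rows, with LBR as the exception.

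That tumour was not the highest in muscle, endothelial or adipocyte markers. Its 5 muscle markers summed to 2.21 fpm, where dgat1a replicates 1, 3 and 5 had 349.7, 74.6 and 84.8 fpm, dgat1a replicate 4 had 1.35 fpm and egfp tumours 0.849 to 7.45 fpm. Its 5 keratinocyte and epithelial markers summed to 4534 fpm, below egfp replicate 2 (4729 fpm) and dgat1a replicate 5 (4621 fpm). Their median deviation from each gene's mean over all tumours was highest in dgat1a replicate 2, at 1.67 log2 units. The next were dgat1a replicate 5 at 1.56 and egfp replicate 2 at 1.48. The sum was 397.5 fpm in egfp replicate 1. Across groups the sum ranged from 397.5 to 4729 fpm in egfp and 1307 to 4621 fpm in dgat1a tumours. In dgat1a replicate 2 the macrophage and neutrophil markers csf1ra, marco and lyz summed to 411.6 fpm, the highest of all, with lyz at 0.167 fpm. They summed to 147.7 to 247.1 fpm in egfp tumours and 208.0 to 327.5 fpm in the other dgat1a tumours. The neutrophil marker lyz did not pass the filter on low values and was not tested. In the authors' deposited table it was higher with dgat1a (log2 fold change 1.97, adjusted p of 0.0432). In dgat1a replicate 2 the 3 endothelial markers summed to 58.4 fpm, within the range of 50.2 to 105.0 fpm of all tumours. The adipocyte marker fabp4a was at 55.2 fpm, within 46.1 to 92.0 fpm, and both ADIPOQ IDs were at most 1.51 fpm in any tumour. The part of macrophage, neutrophil or epithelial content in the sterol genes was not tested.

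Regulators of the SREBP pathway did not pass the threshold. Of 15 tested IDs of the regulator list, 0 passed in limma, edgeR or DESeq2, where 0.0534%, 0.0178% and 5.14% of all tested genes did. MBTPS1 alone was at an unadjusted p under 0.05, a share of the list below the 15% of all tested genes. MBTPS1, the site-1 protease that cuts SREBP proteins, measured 150.5, 169.8 and 136.6 fpm in egfp tumours and 108.2, 105.7, 91.9, 126.6 and 109.1 fpm in dgat1a replicates 1 to 5. Its groups did not overlap, as in 5.95% of tested genes in this direction, and its log2 fold change was -0.49 (limma adjusted p = 0.260). The retention factor insig1, itself a sterol-responsive gene in mammals, measured 24.3 fpm in dgat1a replicate 2, inside the range of 9.69 to 34.7 fpm of the other tumours. The coactivator ppargc1b had a log2 fold change of -0.52 (limma adjusted p = 0.442). SCAP, the escort of SREBP proteins, measured 38.5 fpm there against 18.9 to 36.0 fpm.

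Among genes of sterol uptake and export, ABCA1 was lower in every dgat1a tumour. ABCA1 (ENSDARG00000074635), which exports cholesterol from cells, measured 656.8, 510.7 and 636.2 fpm in egfp tumours and 418.1, 249.2, 236.8, 410.4 and 274.3 fpm in dgat1a replicates 1 to 5. The groups did not overlap, as in 5.95% of tested genes with dgat1a lower. The log2 fold change came to -0.95 (SE 0.25, 95% interval -1.51 to -0.40, limma adjusted p = 0.201). It passed in DESeq2 (adjusted p = 0.0310) and not in edgeR (adjusted p = 0.175). In the authors' deposited table its log2 fold change was -0.87 with an adjusted p of 0.0460. The paralog abca1b differed in pattern, at 102.1 fpm in dgat1a replicate 2 and 14.2 to 44.2 fpm elsewhere. For ldlrb the log2 fold change was 1.24 with an interval of -0.12 to 2.60 (limma adjusted p = 0.365). The second receptor gene ldlra had 7.30 fpm in dgat1a replicate 2 and at most 2.29 fpm elsewhere. Of 12 tested IDs, 0 passed in limma, 0 in edgeR and 1 in DESeq2, where 0.0534%, 0.0178% and 5.14% of all tested genes did. DESeq2 gave ABCG1 no adjusted p.

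Beyond the DGAT1 ID itself, the genes that assemble triacylglycerol stayed on the same side of the threshold. Of 11 tested IDs, that ID alone passed in limma, edgeR and DESeq2, where 0.0534%, 0.0178% and 5.14% of all tested genes did. GPAM, which starts glycerolipid synthesis, measured 13.6 ± 4.27 fpm (SD, n = 3) and 16.1 ± 4.91 fpm (SD, n = 5), with a log2 fold change of 0.22 (limma adjusted p = 0.733). SOAT1, which stores cholesterol as its ester, measured 28.0 and 40.4 fpm in dgat1a replicates 1 and 2 and 2.95 to 12.6 fpm in the other 6 tumours, with a log2 fold change of 0.89 (limma adjusted p = 0.567). DGAT2, the second triacylglycerol synthase, had too low a mean for the filter and was not tested. It was listed at 0, 0 and 0.0772 fpm in egfp replicates 1 to 3 and at 0.176, 2.503, 0.0921, 0.328 and 0.496 fpm in dgat1a replicates 1 to 5, where 3 reads correspond to at most 0.138 fpm. The values of egfp replicate 3 and dgat1a replicate 3 were both under the 3-read floor of their tumours. The order of those tumours, and so a separation of the groups, cannot be read from them. The highest value was that of dgat1a replicate 2. In the authors' deposited table its adjusted p was 0.0824.

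The 4 genes were also listed in the authors' own comparison. In the authors' deposited table the log2 fold changes were 0.59 for fasn, 0.64 for scd and 0.51 for srebf1, with adjusted p-values of 0.390, 0.446 and 0.509, where 3.67% of its genes were under 0.05. For hmgcra the authors' deposited table gave a log2 fold change of 0.83 and no p-value.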

How the data were processed

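RNA was extracted with Trizol from 8 tumours and sequenced, with group and replicate read from each title. The submitters' processing notes name STAR 2.5.3, featureCounts 1.6.2, DESeq2 1.14.1 and the build GRCz11, with no role or order, and strandedness and annotation are not given in the sources used here. The authors deposited a per-million signal (fpm), log2-like variance-stabilised values, and a comparison with log2 fold changes, a score equal to fold change over standard error, and p-values, per the file headers. The fpm columns summed to 907747 to 1053608, and 100% of values were whole multiples of 1 read (tolerance 0.01), so whole reads were recovered.

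After a filter that required a mean of 1 fpm, 16853 genes were tested with limma 3.58.1 (R 4.3.3) on log2(fpm + 0.5), with an intensity trend and Benjamini-Hochberg adjustment over all of them at 0.05. This scale understates changes of low genes. edgeR 4.0.16 and DESeq2 1.42.0 on the recovered reads were alternatives. The limma, edgeR and DESeq2 tests were tried on simulated data, and the permutation test of group means on values with known answers. Floors of 3 reads and intervals of single values cover counting error only. IDs were paired with symbols for 21017 of 22416 genes. Listed symbols were matched without regard to case and, where absent, without the paralog letter, a rule made after the tables were seen. Some listed genes are not reported here and were left out of the list's counts. Genes were named if past the threshold, or among the 6 of a list with the largest limma statistic, and others after their values were seen. The members and lists were chosen with earlier results of these data known. Because the labels give no batch, batch and group cannot be told apart. The alternatives tried were other pseudocounts, filters, scalings, tests, the replicate block and left-out tumours.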

Additional observations from a re-analysis of the deposited data

Results flagged for a closer look

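In the group of 5 dgat1a tumours, single tumours stood far from the others in several lipid genes, judged by the gap to the nearest tumour as a share of the group's range, against the 95% critical value of Dixon for 5 tumours. For normally distributed values chance gives this in about 1 of 20 groups. For hmgcra the share was 0.916 on the fpm scale, set by dgat1a replicate 2, and it was under the limit on the log2 scale. On log2(fpm + 0.5), 7 of 76 genes were past the limit. Replicate 2 was the far tumour for HMGCS1 (0.802), FDPS (0.760) and SQLE (0.715), all of them high there. It was also the far tumour for the sterol exporter ABCG1 (0.8287), at 1.17 fpm where the other dgat1a tumours had 3.86 to 4.81 fpm. For ABCG1 egfp replicates 1 to 3 had 0.396, 31.8 and 0.502 fpm. Malic enzyme ME1 (0.942) was low in dgat1a replicate 1, at 1.89 fpm, and was also at 1.89 fpm in egfp replicate 1. The glucose-sensing partner MLX (0.930) was high in dgat1a replicate 4, and the acyltransferase AGPAT2 (0.818) was high in dgat1a replicate 3. On the fpm scale 21 of 76 genes were past the limit, 18 of them with replicate 2 as the far tumour. Of these 18, 15 were cholesterol synthesis genes, which were high together in that tumour and are not separate cases. The share over all tested genes is not given here, so these counts do not show an excess.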

How the results depend on the processing

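Of 95 alternative values for the 4 genes, 93 kept the direction and 0 passed the threshold, and the adjusted p of each tool (limma, edgeR, DESeq2) lay within 0.205 to 0.996. Both reversals were of hmgcra, to -0.26 without dgat1a replicate 2 and to -0.31 without that tumour and egfp replicate 1, a fit added after the data were seen, as was DESeq2 without its filter on extreme counts. Leaving out 1 tumour gave log2 fold changes of 0.35 to 0.74 for fasn, 0.44 to 1.16 for scd, 0.26 to 0.72 for srebf1 and -0.26 to 0.97 for hmgcra, and exact permutation p-values of 0.0571 (without dgat1a replicate 4) to 0.429 for fasn, 0.0952 (without egfp replicate 2) to 0.381 for scd, 0.143 (without dgat1a replicate 3) to 0.667 for srebf1 and 0.600 to 1 for hmgcra, with 0.686 and a reversed sign without dgat1a replicate 2. Without the 2 farthest tumours the correlation was 0.00298 for fasn with srebf1 and 0.443 for scd with srebf1.

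The count of 9 genes past the threshold was 3 in edgeR with TMM and with DESeq2-type size factors, 866 with DESeq2, 913 with DESeq2 without its filter, 4 with dgat1a replicates 1 to 3 only, 3 without dgat1a replicate 2 and egfp replicate 1, and 5 (without egfp replicate 1) to 55 (without egfp replicate 2) when 1 tumour was left out. The cause was not tested. With the replicate block it was 0, with 2080 genes at an unadjusted p under 0.05, in a fit with fewer tumours and degrees of freedom. Same-numbered tumours deviated together with correlations of 0.00708 to 0.240, not all above 0.1, so the numbers were not taken as pairs. The block left the 4 genes on the same side of the threshold and gave 0 triacylglycerol genes in place of 1. The fatty acid list had 1 gene past the threshold with DESeq2 and 0 to 1 when a tumour was left out, and the sterol uptake and export list had 1 with DESeq2. For scdb the log2 fold change ranged from 2.89 to 3.87 and the adjusted p from 2.32e-08 to 0.294 over the same tools, past the threshold in 7 of 24 alternatives. At 68 reads or more per tumour for each of the 4 genes, depth was not near the floor of 3 reads.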
